A study of Mus musculus with 4 samples.

Results

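The genes described here are Hras, Nras, Araf, Braf, Map2k1, Map2k2 and Mapk3, 7 genes of the cascade from Ras through Raf and MEK to ERK. They were taken by name from the 34866 genes of the deposited table, in which GENCODE M21 symbols on GRCm38 were assigned to the gene identifiers, and all 7 were present. Other paralogs of the cascade were not analysed here. The cells came from diseased mice that carried the λ-MYC+/TG transgene, a Cre knock-in allele and the R26tdTom+/ki reporter. The MYC transgene under regulatory elements of the immunoglobulin λ locus gives rise to B cell lymphoma. Cre switches on the Tomato protein (Tom) for good, so Tom marks cells in which Cre was made at some time and not those that make it now. From the spleen of each of 2 mice (tumors #1 and #2), B220+ IgM+ Tom- and B220+ IgM+ Tom+ cells were sorted, which gave 4 libraries, 1 per mouse and Tom status. The transgene, the Cre allele and the reporter are carried by both groups, and the comparison asks how lymphoma cells with this history differ from the other lymphoma cells of the same mouse. The age and sex of these 2 mice are not given in the sources used here, and 1 library for each mouse and Tom status is the whole of the replication.

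Ras proteins are small GTPases at the inner face of the plasma membrane that act as switches, on when bound to GTP and off when bound to GDP. Active Ras recruits Raf kinases, which phosphorylate and activate the kinases MEK1 and MEK2, which in turn activate ERK1 and ERK2. In B cells the cascade is driven by the B cell receptor, mainly through exchange factors of the RasGRP and Sos families, and it is known for its role in the growth and survival of developing and activated B cells. Among the genes described, Hras and Nras encode Ras proteins, Araf and Braf encode Raf kinases, Map2k1 and Map2k2 encode MEK1 and MEK2, and Mapk3 encodes ERK1.

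Levels are given in transcripts per 1000000 (TPM), which the authors computed with Salmon and which are corrected for transcript length, so levels of different genes can be compared. Read numbers cannot be recovered from TPM, and depth and counting error are therefore unknown. The B cell markers Cd79a, Cd79b, Ms4a1, Ptprc and Ighm were at 1 TPM or more in each library. The summed level of 5 T cell markers was between 0.398 and 8.27 TPM and that of 5 myeloid markers between 2.40 and 10.8 TPM. Below 1 TPM in all 4 libraries were 3 of the T cell markers (Cd3e, Cd4 and Cd8a), while Cd3d reached 7.77 TPM, and 1 of the myeloid markers (Csf1r), while Cd68 was at 1.92 to 6.41 TPM. The sum of 4 plasma cell markers was 13.0, 15.3 and 20.1 TPM in the first 3 libraries and 230.9 TPM in Tom+ cells of tumor #2. Jchain made up 208.7 TPM of the last sum, and the other 3 markers there were Xbp1 at 21.2 TPM (18.7 TPM in Tom- cells of the same tumor), Prdm1 at 0.570 TPM and Sdc1 at 0.428 TPM, below its level in tumor #1. The same library had the largest share of TPM in immunoglobulin genes (9.76%, against 5.35% to 6.28% in the others). In bulk libraries, fewer cells of a type and less RNA per cell cannot be told apart.

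The stretches just upstream of the 3 genes with a lower level in Tom+ cells of both tumors are shown, and those of the other members are not. They were chosen by this pattern, which 29.5% of all genes tested have, so their letters cannot bear on it. The RefSeq promoter table on GRCm38.p6 held 6 of the 7 genes, without Mapk3. Each stretch is written 5′ to 3′ on the strand of the gene and ends just before its transcribed part, and bases that lie in any annotated exon were left out. They are chr3:103058187-103058284 (plus strand) for Nras, chr7:141194006-141194156 (minus strand) for Hras and chr10:81105665-81105914 (plus strand) for Map2k2. Capitals mark the letters CACGTG (an E-box, the kind of site that MYC is known to bind with its partner MAX) and GGGCGG on either strand (a GC box, the kind of site that Sp factors are known to bind).
Nras: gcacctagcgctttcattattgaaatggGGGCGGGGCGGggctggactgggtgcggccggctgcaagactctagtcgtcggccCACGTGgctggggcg
Hras: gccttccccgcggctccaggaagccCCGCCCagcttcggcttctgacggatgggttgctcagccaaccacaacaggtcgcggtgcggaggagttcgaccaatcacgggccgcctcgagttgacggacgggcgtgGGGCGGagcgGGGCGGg
Map2k2: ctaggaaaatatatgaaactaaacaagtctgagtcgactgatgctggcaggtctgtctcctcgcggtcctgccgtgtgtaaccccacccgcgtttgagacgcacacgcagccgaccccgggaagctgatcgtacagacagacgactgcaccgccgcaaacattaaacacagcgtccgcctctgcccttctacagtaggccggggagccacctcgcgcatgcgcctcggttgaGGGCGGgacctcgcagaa

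The E-box was found 1 time, 15 bases before the start of Nras, and in none of the other 5 members' windows from 250 bases before to 50 after the start. Of all 32851 promoter windows of that length in the table, 7.15% held it. The GC box was found in the windows of 5 members, all but Araf, and in 35.7% of all windows. The copies in the Nras stretch begin 70 and 65 bases before the start and overlap by 1 base, and the Map2k2 stretch holds 1 copy. These are matches of letters and no binding was measured.

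Nras was the most abundant of the 7 genes in each library, at a mean of 96.7 ± 34.0 TPM (SD, n = 4 libraries), a level above that of 90.4% of the 11339 genes tested. It took between 40.9% and 59.7% of the summed TPM of the 7 genes. Braf was the least abundant in each library, at 3.86 ± 1.53 TPM. The other 5 lay between them, with means of 24.9 ± 7.95 TPM for Araf, 19.1 ± 5.22 TPM for Mapk3, 18.7 ± 2.59 TPM for Map2k1, 15.7 ± 5.75 TPM for Map2k2 and 12.9 ± 4.03 TPM for Hras. Neighbors in this order of 5 differed by less than the larger of their SDs, and the order was not the same in any 2 libraries, whereas Nras above them and Braf below them were farther away than that.

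**Figure D1:**
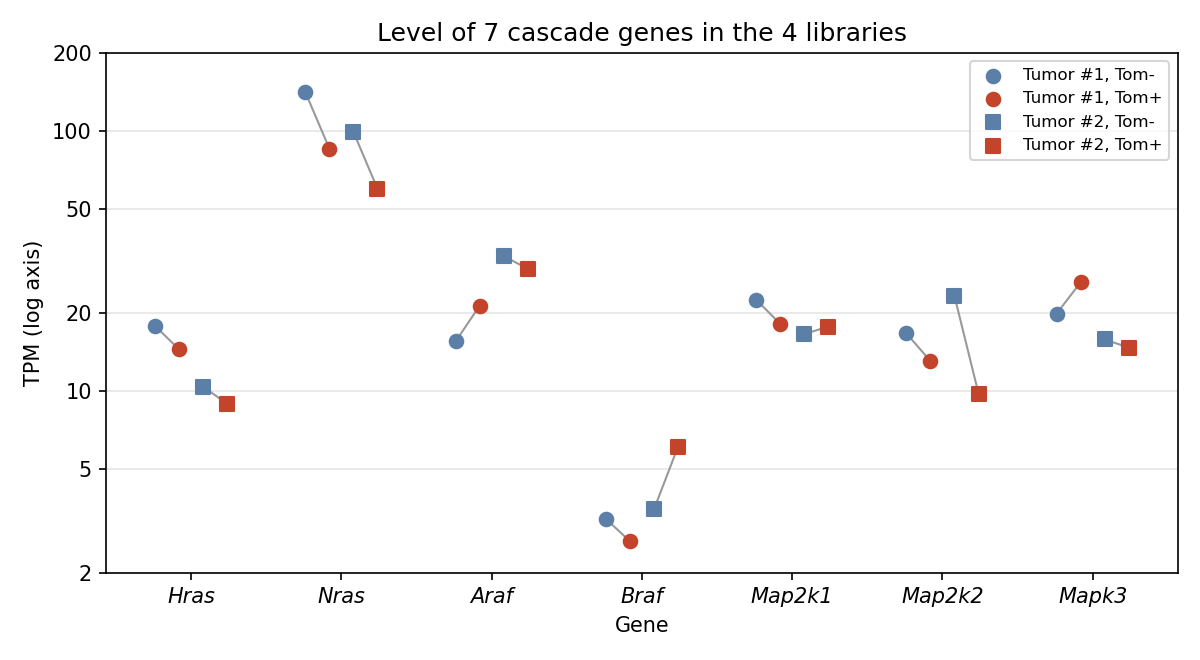
Level of each gene in TPM (log axis) in the 4 libraries, with circles for tumor #1, squares for tumor #2, blue for Tom- and red for Tom+ cells, and a line between the libraries of the same tumor. Nras lies above the other genes in each library and Braf below them, and the lines of Nras, Hras and Map2k2 slope down in both tumors.

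Among the Ras genes, Nras (ENSMUSG00000027852, chromosome 3, 103058285 to 103067914 of GRCm38) was at 141.4 TPM in Tom- and 85.7 TPM in Tom+ cells of tumor #1. In tumor #2 it was at 99.4 TPM in Tom- and 60.1 TPM in Tom+ cells. The means were 120.4 ± 29.7 TPM in Tom- and 72.9 ± 18.1 TPM in Tom+ cells (SD, n = 2). Both Tom+ libraries were below both Tom- libraries, and Tom+ cells had 0.606 and 0.605 of the level of Tom- cells in tumors #1 and #2. Between paired libraries, the difference on the log2(TPM + 1) scale was -0.72 in each tumor, and the fitted log2 fold change was -0.72 (SE 0.13, 95% interval -1.11 to -0.33). Its p-value from limma, with the tumor as a block, was 0.00921 before and 0.936 after adjustment over all 11339 genes, so it did not pass the threshold of 0.05. The difference within each tumor stayed between -0.75 and -0.65 under 10 choices of scaling, pseudocount and filter. The groups overlapped under 1 of these choices, trimmed-mean scaling of the libraries, which lifted Tom+ cells of tumor #1 slightly above Tom- cells of tumor #2. Pseudocounts and filters could not have changed the order of the libraries. With immunoglobulin genes left out, the differences were -0.72 in tumor #1 and -0.65 in tumor #2. Of the 5644 distinct runs of 60 bases, the read length, in the annotated transcripts of Nras, 11 (0.195%) also occur in transcripts of other genes.

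Hras (ENSMUSG00000025499, chromosome 7, 141189105 to 141194005) was at 17.8 TPM in Tom- and 14.5 TPM in Tom+ cells of tumor #1, with 10.4 and 8.92 TPM for tumor #2. It was lower in Tom+ cells of each tumor, but the groups overlapped because both libraries of tumor #2 were below both of tumor #1. The log2 fold change was -0.24 (SE 0.18, 95% interval -0.78 to 0.29, adjusted p = 0.936 from limma), from -0.28 in tumor #1 and -0.20 in tumor #2. The ratio of Nras to Hras was 7.94 in Tom- and 5.93 in Tom+ cells of tumor #1, and 9.56 and 6.74 in tumor #2. It was thus lower in Tom+ cells of both tumors, by -0.42 and -0.50 on the log2 scale. This ratio does not change when all genes of a library are scaled by the same factor. Quantile normalization is not a scaling of that kind. Ratios are given as a description and were not tested.

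For the Raf kinases the tumors went in opposite directions. Araf (ENSMUSG00000001127, chromosome X, 20797814 to 20860519) was at 15.5 TPM in Tom- and 21.3 TPM in Tom+ cells of tumor #1, whereas tumor #2 had 33.1 and 29.5 TPM. The groups overlapped, and the log2 fold change was 0.14 (SE 0.23, 95% interval -0.56 to 0.83, adjusted p = 0.956 from limma). Braf (ENSMUSG00000002413, chromosome 6, 39603237 to 39725463) had 3.22 TPM in Tom- and 2.64 TPM in Tom+ cells of tumor #1, whereas tumor #2 had 3.50 and 6.10 TPM. Its 4 values overlapped between the groups as well, with Tom+ cells of tumor #2 the highest library (log2 fold change 0.22, SE 0.32, 95% interval -0.76 to 1.21, adjusted p = 0.952). The ratio of Braf to Araf was 0.208 in Tom- and 0.124 in Tom+ cells of tumor #1, and 0.106 and 0.207 in the same order in tumor #2. The end of Braf overlaps Ndufb2, a gene of respiratory complex I on the other strand, by 146 bases. Ndufb2 was at 33.9 TPM in Tom- and 29.3 TPM in Tom+ cells of tumor #1, with 25.9 and 22.1 TPM for tumor #2. Runs of 60 bases shared with Ndufb2 are 0.619% of those in Braf transcripts. Araf shares 0.923% of its runs with other genes, and Hras, Map2k1, Map2k2 and Mapk3 share 0%. Whether the libraries keep the strand is not given in the sources used here, so reads from the overlap cannot be assigned to either gene.

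**Figure D2:**
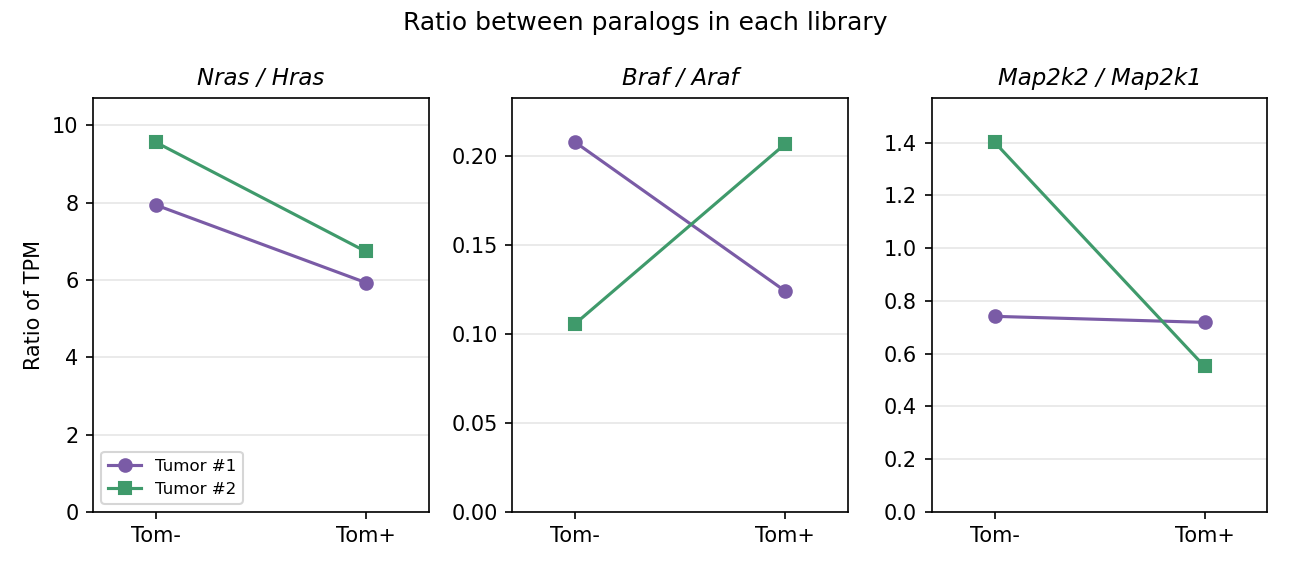
Ratio of TPM between paralogs in Tom- and Tom+ cells, 1 panel for each pair, with a line for each tumor and vertical axes that start at 0. The ratio of Nras to Hras is lower in Tom+ cells of both tumors (7.94 to 5.93 and 9.56 to 6.74), that of Braf to Araf crosses, and that of Map2k2 to Map2k1 differs in tumor #2 (1.40 to 0.552).

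Between the MEK genes, Map2k2 (ENSMUSG00000035027, chromosome 10, 81105915 to 81133975) was at 16.7 TPM in Tom- and 13.0 TPM in Tom+ cells of tumor #1. In tumor #2 it was at 23.2 TPM in Tom- and 9.77 TPM in Tom+ cells. Both Tom+ libraries were below both Tom- libraries, and the size differed between the tumors, at 0.782 and 0.421 of the Tom- level. This order also held under trimmed-mean scaling, quantile normalization and each set of genes left out. Other pseudocounts and filters cannot change the order of a gene's values. On the log2 scale the differences were -0.33 and -1.17. The 95% interval of the log2 fold change of -0.75 (SE 0.29) ran from -1.63 to 0.13 (adjusted p = 0.936 from limma). Tom+ cells of tumor #2 are also the library with the high level of Jchain and share of immunoglobulin genes. With immunoglobulin genes left out the differences of Map2k2 were -0.34 and -1.11. Leaving them out only rescales the remaining genes of each library, and the part of Jchain and the cells that express it was not tested. Map2k1 (ENSMUSG00000004936, chromosome 9, 64185770 to 64253631) had 22.5 TPM in Tom- and 18.1 TPM in Tom+ cells of tumor #1, with 16.6 and 17.7 TPM for tumor #2. Its groups overlapped, with a log2 fold change of -0.10 (SE 0.19, 95% interval -0.70 to 0.49, adjusted p = 0.963). The ratio of Map2k2 to Map2k1 was 0.742 in Tom- and 0.719 in Tom+ cells of tumor #1, where tumor #2 had 1.40 and 0.552. Map2k2 was therefore the more abundant MEK gene in Tom- cells of tumor #2 and the less abundant one in the other 3 libraries.

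Mapk3 (ENSMUSG00000063065, chromosome 7, 126759601 to 126765819) was at 19.9 TPM in Tom- and 26.2 TPM in Tom+ cells of tumor #1, with 15.8 and 14.7 TPM for tumor #2. The values overlapped between the groups, and the highest and the lowest library were both Tom+. The log2 fold change was 0.14 (SE 0.21, 95% interval -0.50 to 0.79, adjusted p = 0.952 from limma), from 0.38 in tumor #1 and -0.10 in tumor #2.

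**Figure D3:**
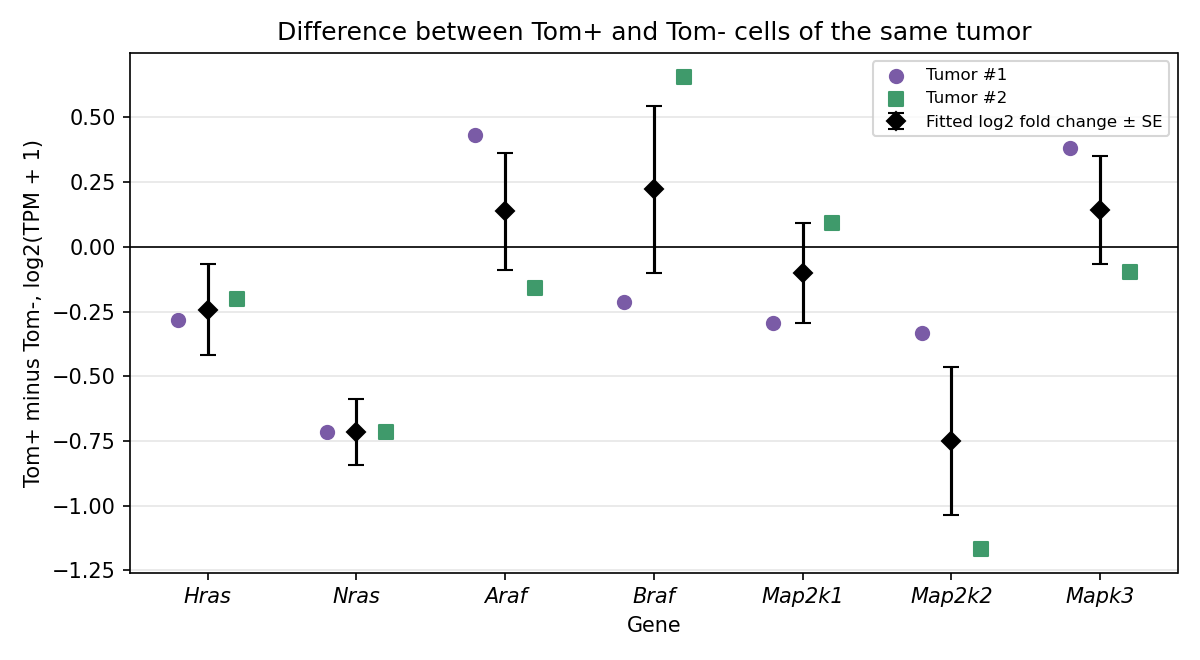
Difference between Tom+ and Tom- cells on the log2(TPM + 1) scale for each gene, with circles for tumor #1, squares for tumor #2, and diamonds with bars for the fitted log2 fold change ± SE from limma. The points of Nras coincide at -0.72, those of Hras and Map2k2 are both below 0, and those of the other 4 genes lie on both sides of 0.

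Across the cascade, 0 of the 7 genes passed an adjusted p-value of 0.05 between Tom+ and Tom- cells, as did 0 of all 11339 genes tested (0%). At an unadjusted p-value below 0.05 there was 1 member, Nras, where 4.67% of all genes are below that value, which for 7 genes is 0.327. In 2 members, Nras and Map2k2, both Tom+ libraries were below both Tom- libraries, against 9.86% of all genes (0.690 for 7 genes). This share covers only the direction that these 2 members showed. The share of genes apart in either direction is larger and was not counted. There were 3 members with a lower level in Tom+ cells of both tumors and 0 with a higher level in both. The first of these patterns was found in 29.5% of all genes, which is 2.07 for 7 genes, and so the count of 3 is near the background. The second was found in 21.6% of all genes. In 4 members the tumors went in opposite directions, as they did for 47.3% of all genes (3.31 for 7). The median log2 fold change of the 7 genes was -0.10, and that of all genes was -0.03. These genes are parts of a protein cascade whose activity is set by phosphorylation, which was not measured here.

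The same 7 genes were then compared between the 2 mice, with Tom status as the second term of the fit. Each side is 1 mouse, and the spread comes from libraries of the same mice, so the p-values compare these 2 tumors only. The whole table was shifted between the tumors. The median of all genes was 0.20 higher in tumor #2 on the log2 scale with TPM as deposited and -0.01 after trimmed-mean scaling. With TPM as deposited, a gene at 0 is thus below the median of all genes. Of 11339 genes, 491 (4.33%) had an adjusted p-value below 0.05, 382 of them higher in tumor #2, and with trimmed-mean scaling 589 did, 348 of them higher. Over 12 alternative settings this count ran from 1 to 2231, and 9 of them moved it by over 1.5 times. Among the 7 genes the count was 0, with Nras closest to the threshold (limma, adjusted p = 0.0970).

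Both Ras genes were lower in tumor #2, Hras with a difference of -0.68 (SE 0.18, adjusted p = 0.0993) and Nras with -0.50 (SE 0.13). For Nras the difference was -0.50 among Tom- and -0.51 among Tom+ libraries, so its 4 values were close to the sum of 1 step for the tumor and 1 for Tom status. The value of Mapk3 was -0.55 (SE 0.21, adjusted p = 0.168), with -0.31 among Tom- and -0.80 among Tom+ libraries. For Map2k1 it was -0.23 (SE 0.19, adjusted p = 0.453), with -0.42 and -0.03 in the same order, -0.48 after quantile normalization and -0.11 without mitochondrial genes. Araf was higher in tumor #2, by 0.75 (SE 0.23, adjusted p = 0.123), with 1.05 among Tom- and 0.45 among Tom+ libraries. The value of Braf was 0.53 (SE 0.32, adjusted p = 0.316), but it was 0.09 among Tom- and 0.96 among Tom+ libraries and 0.09 after quantile normalization. For Map2k2 the difference was 0.04 (SE 0.29), with 0.45 among Tom- and -0.38 among Tom+ libraries, and it was -0.19 after trimmed-mean scaling, -0.25 after quantile normalization and -0.06 with protein-coding genes only. Both libraries of tumor #2 were below both of tumor #1 for 3 genes, Hras, Map2k1 and Mapk3, where 23.7% of all genes had this pattern (1.66 for 7). They were above both for 2 genes, Araf and Braf, where 44.8% of all genes did (3.14 for 7). For Nras the tumors were apart in the same way as for Hras after trimmed-mean scaling alone. For Map2k1 they overlapped when immunoglobulin or mitochondrial genes were left out, and for Braf they overlapped after trimmed-mean scaling, after quantile normalization and with protein-coding genes only. The median over the 7 genes was -0.23 with TPM as deposited and -0.45 with trimmed-mean scaling. Mitochondrial genes took 14.4% and 15.6% of TPM in tumor #2 and 6.61% and 8.67% in tumor #1, and the part of this in the differences between the tumors was examined only by leaving these genes out, which gave a median of -0.11. Pseudogenes outside the immunoglobulin genes took 25.4% and 23.4% of TPM in tumor #2 and 31.3% and 30.3% in tumor #1. They were left out only together with all other genes that are not protein-coding, which gave a median of -0.32. The summed level of the B cell markers was 2086 and 1921 TPM for tumor #1, whereas tumor #2 had 4170 and 5257 TPM. Ms4a1 among them was at 20.5 to 32.9 TPM for tumor #1 and 208.6 to 262.9 TPM for tumor #2. That of 3 erythroid markers was 19.2 and 16.3 TPM against 0.0963 and 0.967 TPM, with Hba-a1 at 0 in all libraries. Their part in the differences between the tumors was not tested.

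**Figure D4:**
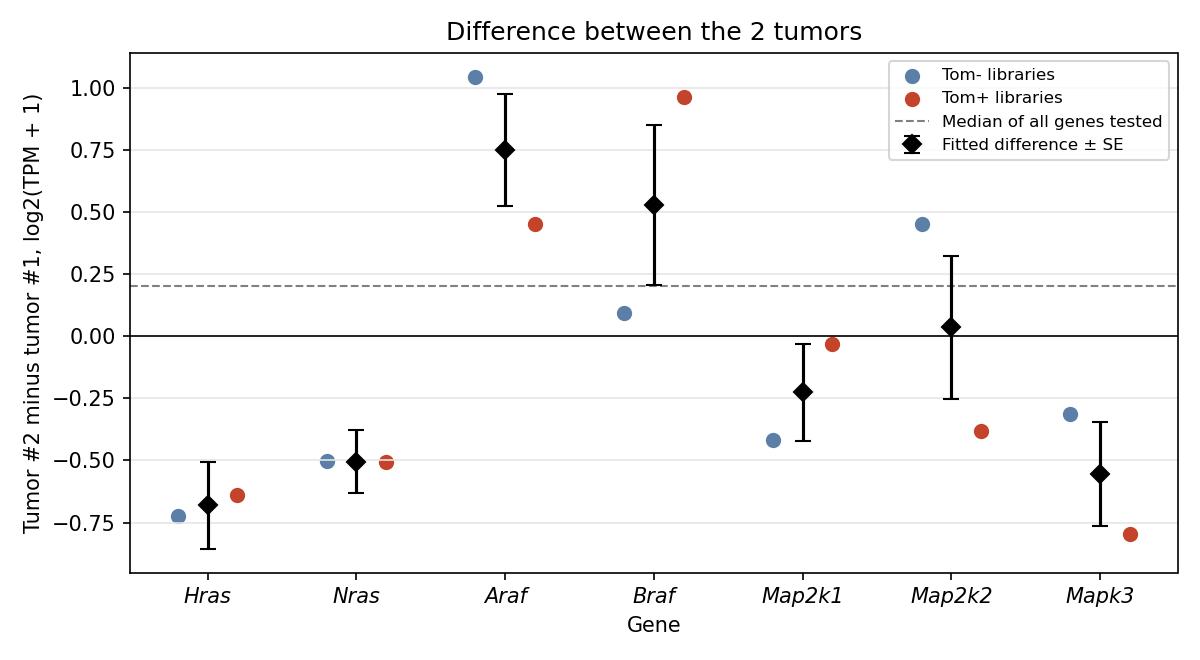
Difference between tumor #2 and tumor #1 on the log2(TPM + 1) scale for each gene among Tom- (blue) and Tom+ (red) libraries, with diamonds and bars for the fitted difference ± SE and a dashed line at the median of all genes tested (0.20). Hras, Nras, Map2k1 and Mapk3 lie below 0, Araf and Braf above it, and the points of Map2k2 lie on both sides.

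To set the 7 genes within their pathway, 8 lists of other genes were read from the same fit, from activators of Ras to targets of ERK. They held 77 genes, of which 57 passed the filter on low TPM (at least 1 TPM in 2 libraries) and 20 did not. Between Tom+ and Tom- cells, 0 of the 57 passed an adjusted p-value of 0.05 and 2 (Grb2 and Rps6ka3) had an unadjusted p-value below 0.05, where the share among all genes gives 2.66. In Tom+ cells of both tumors 21 were lower and 8 higher, where the shares among all genes (29.5% and 21.6%) give 16.8 and 12.3. Their median log2 fold change was -0.05, against -0.03 for all genes.

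Of the 11 exchange factors and adaptors that switch Ras on, 6 were tested, with a median of -0.11, 4 of them lower and 1 higher in Tom+ cells of both tumors, where the share of all genes that are lower in both gives 1.77. Grb2, the adaptor that brings the exchange factor Sos to activated receptors, had 85.3 TPM in Tom- and 63.6 TPM in Tom+ cells of tumor #1, with 95.2 and 70.2 TPM for tumor #2. Both Tom+ libraries were below both Tom- libraries (log2 fold change -0.43, SE 0.13, adjusted p = 0.936). All 8 GTPase-activating proteins, which switch Ras off, were tested, and their median was 0.08, with 2 lower and 3 higher in Tom+ cells of both tumors, where the shares of all genes give 2.36 and 1.73. The 6 enzymes and carriers that anchor Ras in membranes had a median of -0.01, with 1 lower in both tumors (1.77 at the share of all genes), Pde6d, which carries farnesylated proteins (log2 fold change -0.18, SE 0.19).

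Among the 7 Ras-like GTPases, 4 were tested (median -0.06), and Rit1 had a log2 fold change of 0.27 (SE 0.24), from 0.03 in tumor #1 (3.89 and 3.98 TPM) and 0.52 in tumor #2 (7.51 and 11.2 TPM). Of the 10 scaffolds and chaperones 8 were tested, 5 of them lower and 0 higher in Tom+ cells of both tumors, where the shares of all genes give 2.36 and 1.73, with a median of -0.06. Lamtor3, a scaffold that binds MEK1 and ERK1, had, Tom- first, 16.5 and 14.3 TPM for tumor #1 and 27.3 and 21.1 TPM for tumor #2 (log2 fold change -0.28, SE 0.17). Of the 10 feedback inhibitors, phosphatases of ERK and Sprouty and Spred proteins, 5 were tested, with a median of -0.07. In Tom+ cells of both tumors 1 was lower and 1, Dusp7, was higher, and 3 went in opposite directions. The shares of all genes give 1.48, 1.08 and 2.37. Dusp7, a phosphatase of ERK, had 5.47 TPM in Tom- and 6.71 TPM in Tom+ cells of tumor #1, whereas tumor #2 had 11.4 and 49.9 TPM (log2 fold change 1.14, SE 0.53), so that Tom+ cells of tumor #2 stood apart from the other 3 libraries.

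Of the 14 ERK substrates and target genes 10 were tested, with a median of -0.19, 5 lower and 1 higher in both tumors (2.95 and 2.16 at the shares of all genes). Rps6ka3, which encodes the ERK-activated kinase RSK2, had 41.2 TPM in Tom- and 28.4 TPM in Tom+ cells of tumor #1, with 21.8 and 14.1 TPM for tumor #2. Its differences within the tumors were -0.52 and -0.59 (log2 fold change -0.56, SE 0.15, adjusted p = 0.936). Like Hras it had both libraries of tumor #2 below both of tumor #1. The parallel kinase modules of JNK, p38 and ERK5 had 10 of 11 genes tested and a median of -0.01, and 7 of the 10 went in opposite directions in the tumors (4.73 at the share of all genes). Map2k4, a kinase of the JNK module, had a log2 fold change of -0.28 (SE 0.18).

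**Figure D5:**
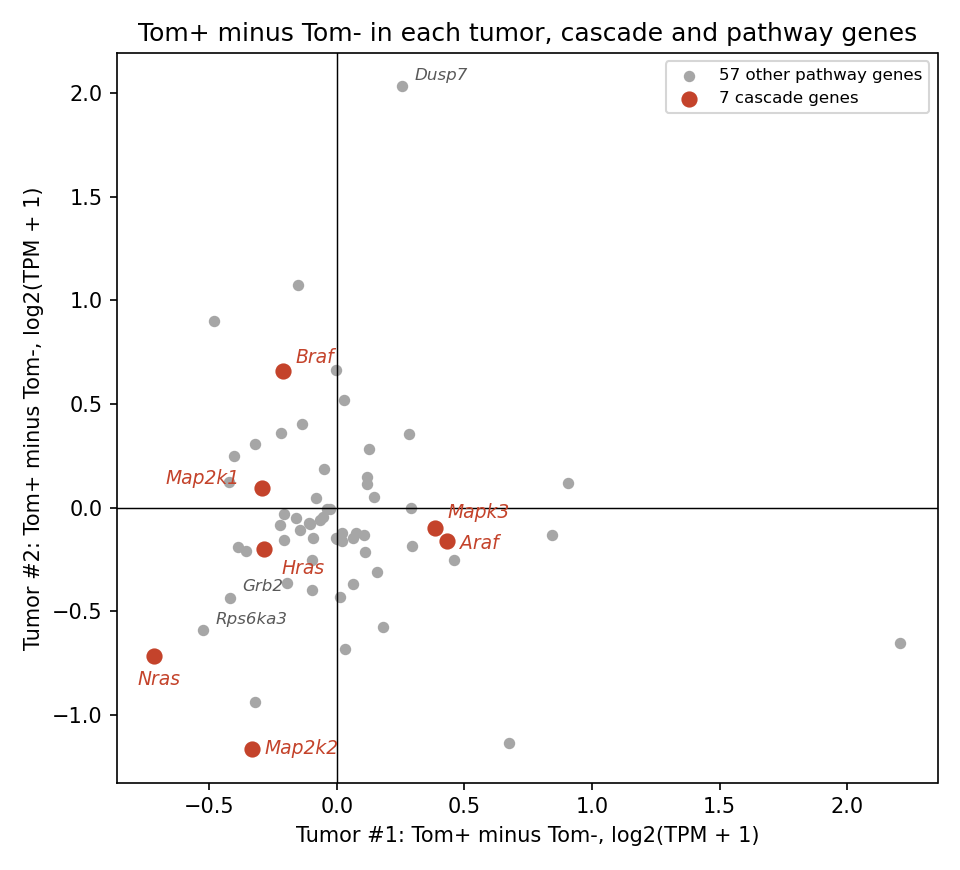
Difference between Tom+ and Tom- cells in tumor #1 (horizontal axis) and tumor #2 (vertical axis) on the log2(TPM + 1) scale for the 7 cascade genes (red) and the 57 tested genes of 8 pathway lists (gray). Nras (-0.72 and -0.72), Rps6ka3 (-0.52 and -0.59) and Grb2 (-0.42 and -0.43) lie near the diagonal in the lower left, and Dusp7 lies high on the axis of tumor #2 (2.03).

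Between the tumors, 36 of the 57 pathway genes were higher and 13 lower in tumor #2 among both Tom- and Tom+ libraries, where the shares among all genes (49.6% and 27.5%) give 28.3 and 15.6. Their median was 0.35, against 0.20 for all genes. The one gene past an adjusted p-value of 0.05 was Rasgrp2, an exchange factor for Rap and Ras proteins, with Tom- and Tom+ levels of 92.8 and 97.0 TPM for tumor #1 and 235.2 and 212.2 TPM for tumor #2 (difference 1.23, SE 0.14, adjusted p = 0.0497 from limma). This call was lost under 7 of 12 alternative settings, over which the adjusted p-value ran from 0.0159 to 0.119.

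The genes whose pattern over the 4 libraries was most like that of each member were found among 7434 protein-coding genes (mean TPM 5 or more), by the Euclidean distance between log2(TPM + 1) values after subtraction of each gene's mean. The nearest were Crnkl1 to Nras (distance 0.10), Lcp1 to Hras (0.042), Blcap to Araf (0.035), Ncoa3 to Braf (0.041), Emc8 to Map2k1 (0.018), Cox18 to Map2k2 (0.064) and Rfc4 to Mapk3 (0.047). Nras had the largest of these distances, and Crnkl1, which encodes a splicing factor, had 25.2 TPM in Tom- and 16.1 TPM in Tom+ cells of tumor #1, with 18.1 and 11.4 TPM for tumor #2. With 4 libraries many genes share any pattern, and the distances are given as a description.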

How the data were processed

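Libraries of 60-base single reads were made from polyA RNA. TPM per gene came from the authors, who used Cutadapt for trimming and, per the submitters' processing notes, Salmon 1.9 on GRCm38. The deposited table is unfiltered, its 4 columns each sum to 1000000, and how transcripts were summed to genes is not stated. The annotation behind the values is uncertain, since some identifiers look more recent than the release the authors name. GENCODE M21 holds 34652 of the 34866 identifiers.

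The pseudocount in log2(TPM + 1) makes differences of low genes look smaller than they are. Tests covered the 11339 genes with at least 1 TPM in at least 2 libraries. limma 3.58.1 in R 4.3.3 was fitted to all of them with Tom status and tumor as terms and an intensity-dependent prior variance (2.21 prior and 1 residual degrees of freedom), with Benjamini-Hochberg adjustment and a threshold of 0.05. The authors' test, edgeR for paired samples, needs counts and was not run. Tumor is a block because each mouse gave both of its libraries, whose deviations from the group means correlated across genes (r = 0.626). No libraries were identical. The fit was run on simulated data as a check of the code. A minimum of recovered genes was required only at a spread far smaller than the fitted one. The check therefore does not measure power in these data. Python 3.11.15, pandas 2.3.3, numpy 2.4.6 and matplotlib 3.10.9 were used for tables and plots.

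The members and lists were chosen with earlier results of these data known. All 7 members were named, and from each list genes past the threshold or else the one with the smallest p among those with the same sign in both tumors. Rasgrp2 was named as the single call in its comparison, and Dusp6, Ndufb2 and the 2 motifs were chosen after values or sequences had been seen. Some items that these rules and the design call for are not reported here. Alternatives were no block, other pseudocounts and filters, other scalings, sets of genes left out, other variance priors and each tumor alone.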

Additional observations from a re-analysis of the deposited data

Results flagged for a closer look

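In 4 of the 7 genes, Tom+ cells differed from Tom- cells in opposite directions in the tumors, which drew attention to them. Subtracting the difference in tumor #1 from that in tumor #2 gave, on the log2(TPM + 1) scale, -0.59 for Araf, 0.87 for Braf, 0.39 for Map2k1 and -0.48 for Mapk3. Each tumor holds 1 pair of libraries, so these differences were not tested. The directions were the same under the 10 choices of scaling, pseudocount and filter (9 for Braf, which a mean TPM of at least 5 removes). Pseudocounts and filters cannot turn a direction, so only the scalings and the genes left out could have. Some of the values are small, between -0.10 and -0.03 for Mapk3 in tumor #2 and between 0.092 and 0.16 for Map2k1 there. Opposite directions were found in 47.3% of all genes.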

How the results depend on the processing

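Between Tom+ and Tom- cells, each of the 12 alternatives called 0 genes, and the count at an unadjusted p-value below 0.05 went from 530 to 140 with no replicate block. The 7 members kept their direction under all 12 (11 for Braf). Leaving out the block or changing the variance prior or the filter does not alter a gene's log2 fold change. These settings could not turn a direction. Nras was between -0.72 and -0.69, with adjusted p-values of 0.792 to 1.00, and Map2k2 between -0.80 and -0.72. With either tumor alone, the median of the members was between -0.28 and -0.16, Mapk3 was between -0.10 and 0.38, Araf between -0.16 and 0.43, Braf between -0.21 and 0.66, and Map2k1 between -0.29 and 0.092. Between the tumors, the count of 491 was 2231 without Tom status as the second term (no replicate block), 1 with a pseudocount of 0.1, with no filter or with quantile normalization, 34 at a mean TPM of at least 5, 940 without immunoglobulin genes, 740 without mitochondrial genes, 1865 with protein-coding genes only and 275 without a variance trend. None of these alternatives called a member, although the adjusted p-value of Nras reached 0.0517. The median of the members was -0.37 at a mean TPM of at least 5 (without Braf), -0.45 and -0.48 with trimmed-mean and quantile scaling, -0.11 without mitochondrial genes and -0.32 with protein-coding genes only. It was -0.31 in Tom- and -0.38 in Tom+ libraries alone. Map2k2 turned to -0.19, -0.25 and -0.058 with trimmed-mean scaling, quantile scaling and protein-coding genes only, and was 0.45 and -0.38 in Tom- and Tom+ libraries alone. The cause of these moves was not tested. With 2 mice and no read counts, neither the counting error nor the spread between mice can be separated from these values.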
